A study of Caenorhabditis elegans with 4 samples.

Results

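NHR-2 binding regions on chromosome IV of Caenorhabditis elegans embryos, outside the piRNA domains of that chromosome, are described here. Members were chosen by position alone: a peak belonged if it lay on chromosome IV and its centre fell neither between 4.5 and 7 Mb nor between 13.5 and 17.2 Mb on the WormBase WS220 build. This gave 221 of the 2299 peaks in the combined list of the series, 3236 of 29379 peaks in the list of ChIP replicate 1 and 2668 of 24151 in that of replicate 2. The members fall into a left part (from the left end to 4.5 Mb), a middle part (7 to 13.5 Mb) and a short right end beyond 17.2 Mb. No combined peak had bases on both sides of a domain edge, and no cluster of combined peaks held peaks from both sides.

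The study used chromatin immunoprecipitation followed by sequencing (ChIP-seq) with an anti-GFP antibody on embryos of strain OP99, a mixed population of males and hermaphrodites grown at 20 °C. The genotype combines unc119(ed3) with the transgene wgIs99, which carries nhr-2::TY1 EGFP FLAG and an unc119 rescue, so the mapped protein is a GFP-tagged NHR-2 made from a transgene that was brought in by bombardment. The labels list 2 ChIP and 2 input libraries, all from this strain at this stage, and no library from untagged animals was analysed here. Peak lists of the ChIP libraries and the combined list are the data, without read numbers or input values.

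NHR-2 is a nuclear hormone receptor, a zinc-finger transcription factor of a family much expanded in nematodes, and it is needed for early embryonic development. A ChIP-seq peak marks a short stretch of DNA that was recovered with the protein more often than background. piRNAs are small RNAs that guide Piwi proteins against foreign sequences in the germline, and in C. elegans most of their genes lie in a pair of broad domains of chromosome IV. The sequence outside those domains is ordinary autosome, with a gene-rich centre and more repetitive arms. Because the gene table at hand (RefSeq, assembly WBcel235) is of another build than the peaks, peaks are given by position and no gene, exon, intron or UTR is assigned to them. That table places nhr-2 on chromosome I and unc-119 on chromosome III, so neither of these transgene loci lies on chromosome IV. Where the transgene was inserted is not stated.

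From the authors every call has a score and a peak number. The score is tied at a ceiling in every list, and the tied peaks hold the lowest numbers, so number 1 was read as the strongest peak of a list. Among tied peaks the score gives no order, so strength there rests on the number alone. At the ceiling of 3.54 stood 164 of the 221 combined members (74.2%), against 75.6% of all combined peaks. In replicate 1, 222 members shared the highest score (6.86%, against 8.01% of that list), and in replicate 2, 93 did (3.49%, against 4.1%). Most deposited peaks were weak calls: the median score of the members was 0.236 in replicate 1 and 0.0627 in replicate 2, where the ceilings were 3.67 and 3.30. The lists rank the members but give no read count, so the depth behind a peak is unknown.

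The strongest region lay just outside the first piRNA domain. It spanned 7022949 to 7023352 and was combined peak 8, peak 6 in replicate 1 and peak 10 in replicate 2. Its centre was 23.2 kb from the domain edge at 7000000, and a second strong peak, at 7017129 to 7017476 (combined number 147, numbers 132 and 161 in replicates 1 and 2), stood between it and the edge. Both therefore owe their membership to where that edge is drawn. On the other side of it, the nearest combined peak, at 6988316 to 6988765, had number 1536. At the other edges the nearest members were combined peak 807 (4445824 to 4445955), 357 (13394764 to 13394966) and 786 (17249626 to 17250075), and the nearest domain peaks were numbers 2256, 392 and 1551.

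Ranks were alike in both libraries for the members with the lowest combined numbers. These members were picked by a list made within the same series, so their like ranks are no independent repeat. After peak 8 came combined peak 20 in the left part, at 175666 to 176115, with numbers 23 and 22 in replicates 1 and 2. Combined peak 25 in the middle part, at 11717050 to 11717425, had numbers 27 and 34. Both replicates thus placed these 3 members within their first 34 peaks.

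Combined peak 31 at 8008176 to 8008603 had number 43 in replicate 1 and 19 in replicate 2. Combined peak 39 at 8921945 to 8922317 had numbers 46 and 55, and combined peak 45 at 3843049 to 3843430 had number 51 in both libraries. Replicate 2 placed the first of these 3 higher and replicate 1 the second, and the third, in the left part, heads a cluster described below.

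Larger differences in order appeared next. Combined peak 60 at 11867657 to 11867964 had number 109 in replicate 1 but 28 in replicate 2. The reverse held for combined peak 67 at 10816925 to 10817408, with numbers 47 and 114. Replicates 1 and 2 thus disagreed in opposite directions on neighbouring ranks.

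Another 3 members were among the first 100 combined peaks, all in the middle part. They were peak 71 at 7235442 to 7235808 (numbers 85 and 57), peak 85 at 9770906 to 9771224 (93 and 74) and peak 97 at 11743774 to 11744155 (97 and 107). In all, 11 of the first 100 combined peaks were members (11%, 95% exact binomial interval 5.62 to 18.8%), while members made up 9.61% of the whole combined list. The share stayed between 9.0% and 10.1% in every later stretch of the order, so members were spread through the ranks of the combined list.

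The next 9 members completed the 20 strongest. Those in the middle part stood at 8819481 to 8819817 (combined number 105), 10241700 to 10241980 (108), 10745359 to 10745664 (123), 12551968 to 12552287 (128), 7017129 to 7017476 (147, described above) and 12133805 to 12134073 (168). In the left part they stood at 149866 to 150171 (101), 3276984 to 3277281 (180) and 2639948 to 2640202 (183). The middle part makes up 57.6% of the member sequence and the left part 39.9%. The combined list has 123 members in the middle part, 92 in the left part and 6 at the right end. Of the 20 strongest members 15 were in the middle part, 5 in the left part and 0 at the right end, and the difference from these shares was not tested. All 20 reached the highest score of the combined list, and their best overlapping peaks reached that of each replicate. Their numbers reached at most 202 in replicate 1 and 241 in replicate 2, and 16 of the 20 had replicate numbers within 2-fold of each other. Over all combined peaks at numbers 1 to 500 this held for 396 of 500 (79.2%), a similar share. Replicate 1 ranked 9 of the 20 members higher, replicate 2 ranked 9 higher, and 2 had the same number in both. These 20 were chosen by combined number, so this likeness of rank is no independent repeat.

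Position was also close at the top. For the 20 strongest members the centre of the best overlapping replicate peak lay at most 25.5 bp from the combined centre in replicate 1 and at most 30.0 bp in replicate 2. Over all members the median absolute distance was 18.0 bp in replicate 1 and 17.0 bp in replicate 2, and the largest were 262 and 368 bp. Over all combined peaks these medians were 15.5 and 19.0 bp. The combined list was made within the same series, so this closeness describes the list and is no independent repeat.

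Strong members were narrower than the rest or of uneven width. The usual width was 450 bp in the combined list, and 161 of the 221 members had it (72.9%, against 72% of all combined peaks). Of the 47 members among the first 500 combined peaks, however, only 2 were 450 bp wide. Members at combined numbers 101 to 500 had a median width of 261 bp, and the 20 strongest ranged from 255 to 484 bp. Among members at numbers 1001 to 1737, 69 of 71 had the usual width. The same change of width with rank was seen over all combined peaks, whose median at numbers 101 to 500 was 256.5 bp. How the authors set the widths is not stated.

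The first comparison asked whether the replicates found the same members. Strong members were found in both libraries almost without exception, and weak ones often in 1 only. In replicate 1, all 46 members among the first 500 peaks and 48 of the 49 at numbers 501 to 1000 were overlapped, by at least 1 bp, by a replicate 2 peak. In replicate 2, all 47 members among the first 500 and all 47 at numbers 501 to 1000 were overlapped by a replicate 1 peak. Agreement fell from there, to 86.4% (108 of 125, 95% interval 79.1 to 91.9%) and 92.1% (129 of 140, 86.4 to 96.0%) at numbers 1001 to 2299 of replicates 1 and 2, against 89.1% and 90.9% of the whole lists there. Beyond number 10000 it was 32.5% (711 of 2186) and 41.7% (674 of 1618), against 32.1% and 41.4%.

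Over the full lists 1359 of 3236 replicate 1 members were overlapped (42.0%, 95% interval 40.3 to 43.7%), against 42.3% of that whole list. For replicate 2 it was 1380 of 2668 members (51.7%, 49.8 to 53.6%), against 51.9%. Members were therefore found again at the rate of their lists. These intervals are exact binomial ones for counting error alone, and they take clustered peaks as if they were independent.

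**Figure D1:**
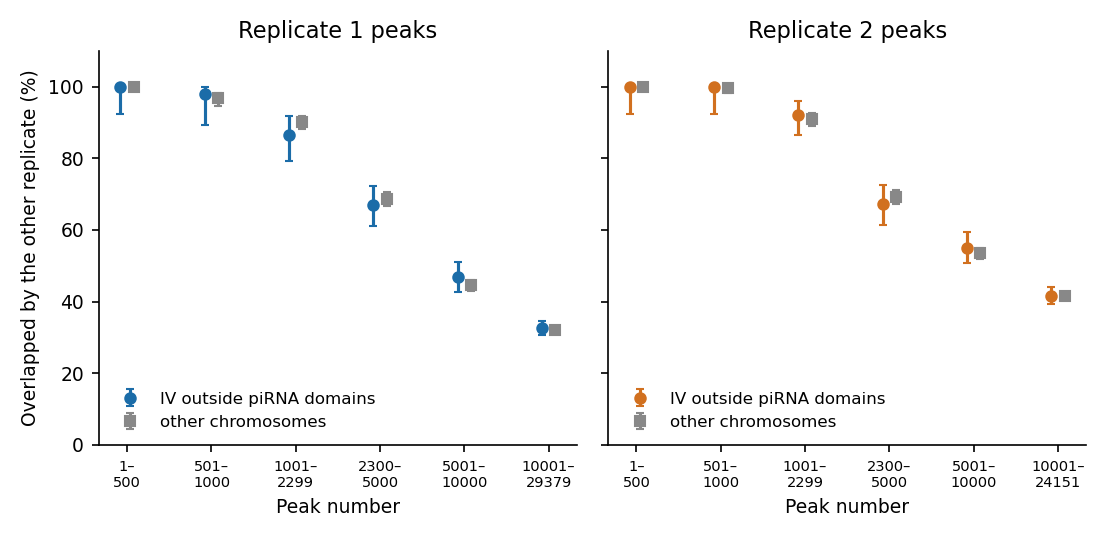
Percentage of replicate 1 peaks (left panel) and replicate 2 peaks (right panel) overlapped by at least 1 bp by a peak of the other replicate, by peak number; coloured circles are chromosome IV members, grey squares the other nuclear chromosomes, and bars 95% exact binomial intervals. Members fell from 100% in the first stretch to 32.5% and 41.7% in the last, and their intervals included the value of the other chromosomes in every stretch.

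Replicate overlap differed along the chromosome in replicate 1. There 46.4% of the 1451 left-part members (95% interval 43.8 to 49.0%) were overlapped by replicate 2, against 38.6% of the 1673 in the middle part (36.2 to 40.9%). The replicate 2 list was itself denser in the left part, with 289 peaks per Mb there and 196 in the middle part, and the part of this density in the overlap was not tested. Among replicate 2 members the shares were 52.4% on the left and 52.0% in the middle part. At the right end, overlap was 36.6% of 112 replicate 1 members and 38.7% of 93 replicate 2 members.

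Ranks of shared members agreed in part. Over 1190 pairs of members that overlapped and were each other's nearest, the peak numbers had a Spearman's rho of 0.46, and on the log10 scale a Pearson's r of 0.71. Limited to the strongest 2299 peaks of each list, 141 pairs gave a rho of 0.74 and an r of 0.88, and the median distance between the paired centres was 25 bp, against 85 bp in the full lists. On the other chromosomes rho was 0.53 over 9045 pairs in the full lists and 0.72 over 1248 pairs in the limited ones. These correlations run across sites of the same pair of libraries, whose depth is unknown, and they are given as descriptions.

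**Figure D2:**
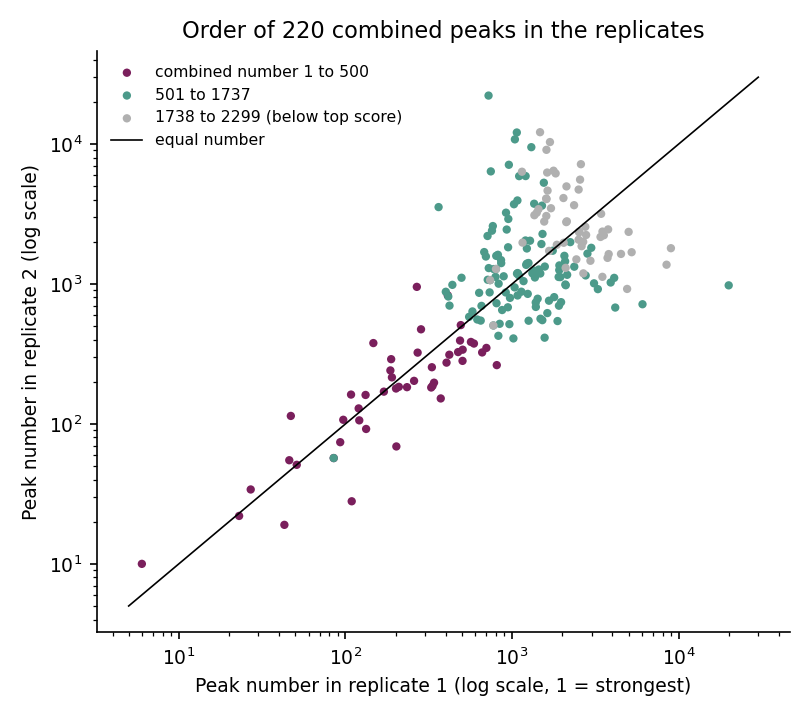
Peak number in replicate 1 (x) against replicate 2 (y), both on log scales, of the best overlapping peaks of the 220 combined members found in both lists; colour gives the combined number and the line marks equal numbers. Points lie closest to the line at the strong end, with some off it there too, and spread wider at higher numbers. A point can hide another where combined peaks share a replicate peak.

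The second comparison asked what of the members the combined list kept. It kept all but 1 of the members within the first 1000 of either replicate list and few of those beyond number 2299. Of the 221 combined members, 220 were overlapped by both replicates (99.5%, 95% interval 97.5 to 100%), against 98.9% of all combined peaks. Replicate 1 overlapped 220 of them, against 99.8% of all, and replicate 2 all 221, against 99.1%. The exception, at 7924054 to 7924503, had combined number 2235, a replicate 2 peak of number 9811 and no replicate 1 peak centred within 1 kb. As the combined list was made within the same series, these shares describe what it kept and are no independent repeat.

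From the other side, the combined list overlapped 261 replicate 1 members (8.07%, against 9.28% of the whole list) and 282 replicate 2 members (10.6%, against 11.7%). It overlapped 94 of the 95 members within the first 1000 of replicate 1 and all 94 of replicate 2. At numbers 1001 to 2299 it overlapped 69.6% and 60.0% of members, against 71.1% and 63.2% of the whole lists. At 2300 to 5000 it overlapped 13.7% and 13.9%, against 16.2% and 18.1%. Some strong calls were thus left out: 39 of 220 replicate 1 members within number 2299 had no combined peak (17.7%, against 17.1% of all such peaks), of which 21 had a replicate 2 peak. For replicate 2 it was 56 of 234 (23.9%, against 21.5%), of which 45 had a replicate 1 peak. These shares lay near those of the whole lists.

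Several of the strongest calls without a partner had a close neighbour in the other list. The strongest replicate 1 member that neither replicate 2 nor the combined list overlapped was peak 880, only 110 bp wide, at 153382 to 153491. A replicate 2 peak of number 326 began 258 bp beyond it. The next was peak 1077 at 12217214 to 12217613, separated by 309 bp from replicate 2 peak 977 at 12216435 to 12216904.

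Other unpartnered calls stood apart. Replicate 1 peak 1536 at 10727637 to 10728036 had no replicate 2 peak for 4317 bp, and peak 1680 at 8071394 to 8071793 none for 2900 bp. In replicate 1, peak 1583 at 3825387 to 3825786 was 206 bp from a weak replicate 2 peak, number 7100. So of the 5 strongest unpartnered replicate 1 members, 3 had a replicate 2 peak within 309 bp and the others had none within 2900 bp.

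In replicate 2 the unpartnered members began at number 1375, against 880 in replicate 1. Of the strongest 5 of replicate 2, only peak 1375 had a number below 1680, the last of the strongest 5 of replicate 1. Those 5 of replicate 2 were peak 1375 at 9677624 to 9678093, peak 1729 at 1497533 to 1498002, peak 1801 at 1857932 to 1858401, peak 1887 at 11635581 to 11636050 and peak 1996 at 11082249 to 11082718. The gap to the nearest replicate 1 peak was 3863 bp for the first and 99 bp for the last.

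Calls found in both replicates could also be missing from the combined list. In replicate 1 these included peak 1313 at 659452 to 659851 and peak 1455 at 7791173 to 7791572, whose replicate 2 partners had numbers 12690 and 15896. In replicate 2 they included peak 1202 at 12821219 to 12821688, peak 1234 at 10868884 to 10869353, peak 1324 at 7815590 to 7816059 and peak 1383 at 7914928 to 7915397. Their best replicate 1 partners had numbers 3153, 14428, 25703 and 6426. Each of these 6 was thus strong in 1 library and weaker in the other.

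Among members that were kept, 133 of 220 (60.5%) had replicate numbers within 2-fold of each other, against 62.8% of all combined peaks. That share fell with rank, from 36 of 47 members (76.6%) at combined numbers 1 to 500, through 67.4% and 54.9%, to 27 of 56 (48.2%) beyond number 1737. All combined peaks took nearly the same course, with 79.2%, 67.1%, 57.9% and 50.4% in these 4 stretches. Likeness of rank among kept peaks is likewise no independent repeat. Over 5-fold apart were 17 members (7.73%, against 7.26%), of which 12 stood higher in replicate 1 and 5 in replicate 2. Over all combined peaks the split was 108 against 57, so replicate 1 ranked higher 70.6% of these members and 65.5% of such peaks in the whole list.

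The widest gap was at 10281115 to 10281564, with number 722 in replicate 1 and 22171 in replicate 2. It was followed by 11924000 to 11924449 (numbers 1067 and 12077), 11166282 to 11166731 (1039 and 10788), 8333932 to 8334381 (362 and 3540) and 12687300 to 12687749 (745 and 6369). These 5 were in the middle part, while all 12 that stood higher in replicate 1 comprised 4 in the left part and 8 in the middle part. At the first of them the only overlapping replicate 2 peak was centred 249 bp to the left, while at the others it was at most 51 bp away.

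In the opposite direction the widest gap was at 12216450 to 12216899, with number 19938 in replicate 1 and 977 in replicate 2. This is the region beside replicate 1 peak 1077 above, whose centre lay 739 bp to the right. The others were 8597625 to 8598074 (6059 and 716), 3336811 to 3337260 (8447 and 1372), 2601928 to 2602377 (4157 and 678) and 3338669 to 3339118 (4899 and 921). Of these 5, 3 were in the left part and 2 in the middle part.

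The direction of the rank difference was also read by position. Replicate 1 gave the lower number for 64 of 122 members in the middle part (52.5%, 95% interval 43.2 to 61.6%) and for 39 of 92 in the left part (42.4%, 32.1 to 53.1%), intervals that overlap. At the right end it did so for 0 of 6. Over all combined peaks it was 52.3%, and on the other chromosomes 55.2% in their middle 50% and 51.4% in the rest. In the piRNA domains of chromosome IV it was 43.2% (19 of 44) in domain 1 and 31.8% (14 of 44) in domain 2. With 2 libraries no test over samples can be made of this.

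The third comparison asked how densely the members lie. In the combined list they stood at 19.6 per Mb over 11.3 Mb, denser than in the piRNA domains (14.2 per Mb) and sparser than on the other nuclear chromosomes together (24.0 per Mb). Of those chromosomes only V was sparser, at 14.5 per Mb. Against all other nuclear sequence the ratio was 0.84. In the strongest 2299 peaks it was 0.84 in replicate 1 and 0.90 in replicate 2, a mean of 0.871 ± 0.043 (SD, n = 2). Over all called peaks it was close to 1, at 0.976 in replicate 1 and 0.979 in replicate 2. Against the piRNA domains the ratio was 1.38 in the combined list and 1.36 and 1.35 in those strongest peaks, so both libraries gave the same order. The replicates are too few for a test of these differences.

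Most of the contrast with the piRNA domains came from the second of them. Domain 1 held 17.6 combined peaks per Mb and domain 2 held 11.9. The left part held 20.4 per Mb (92 peaks), the middle part 18.9 (123 peaks) and the right end 20.5 (6 peaks over 0.292 Mb). Left and middle parts changed order between the libraries, with 18.4 and 20.3 per Mb in the strongest 2299 peaks of replicate 1 and 21.1 and 20.0 in those of replicate 2.

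**Figure D3:**
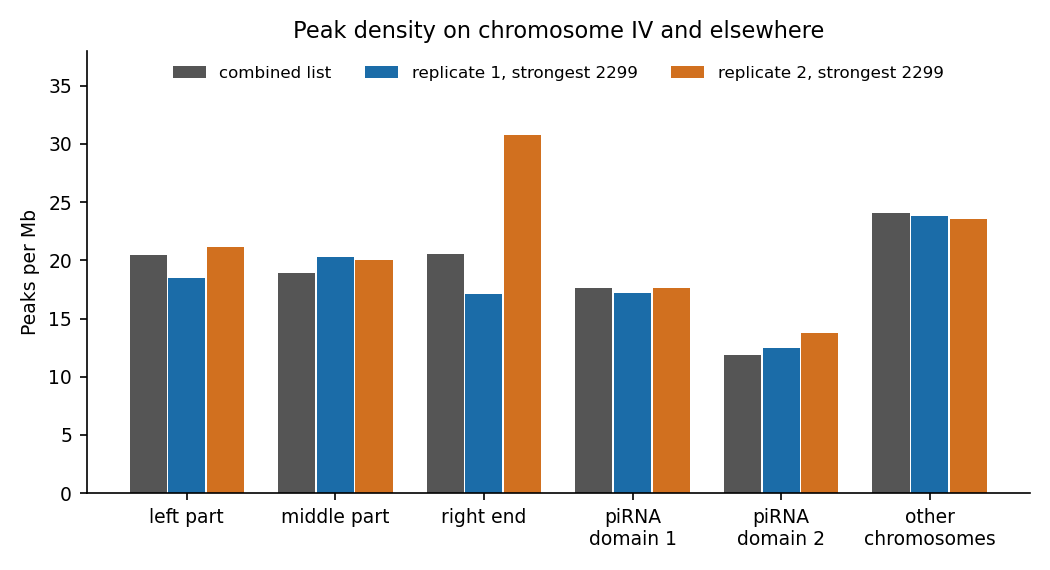
Peaks per Mb (y, from 0) in the 3 parts outside the piRNA domains, in each domain and on the other nuclear chromosomes, for the combined list and the strongest 2299 peaks of each replicate. All 3 lists put the left and middle parts above both domains and below the other chromosomes; the right end rests on 5 to 9 peaks.

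The contrast with the domains was likewise not seen over all called peaks. The density in the full replicate lists was 287 per Mb outside and 292 inside the domains in replicate 1, a ratio of 0.98, and 236 against 246 in replicate 2, a ratio of 0.96. By rank, the ratio in replicate 1 ran from 1.68 in the first 500 peaks to 0.92 beyond number 10000. In replicate 2 it had no steady course, at 1.17 for the first 500, 0.99 for numbers 501 to 1000 and 1.64 for 1001 to 2299. It was then 1.05 for 2300 to 5000, 0.85 for 5001 to 10000 and 0.95 beyond number 10000. The first stretches rest on few peaks, 46 outside and 15 inside in replicate 1 and 47 and 22 in replicate 2.

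Weak peaks leaned to the left part and the right end, away from the middle part. Over all called peaks of replicates 1 and 2, the left part held 322 and 289 per Mb and the middle part 257 and 196. The right end held 383 and 318 per Mb, from 112 and 93 peaks. The left part makes up 39.9% of the member sequence. It held 16 of the 46 members in the first 500 of replicate 1 (34.8%, 95% interval 21.4 to 50.2%) and 15 of 47 in replicate 2 (31.9%, 19.1 to 47.1%). Beyond number 10000 it held 45.8% (43.7 to 48.0%) and 50.3% (47.8 to 52.8%). In both replicates the share in the last stretch was above the share of length, and in the first stretch the interval included it.

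**Figure D4:**
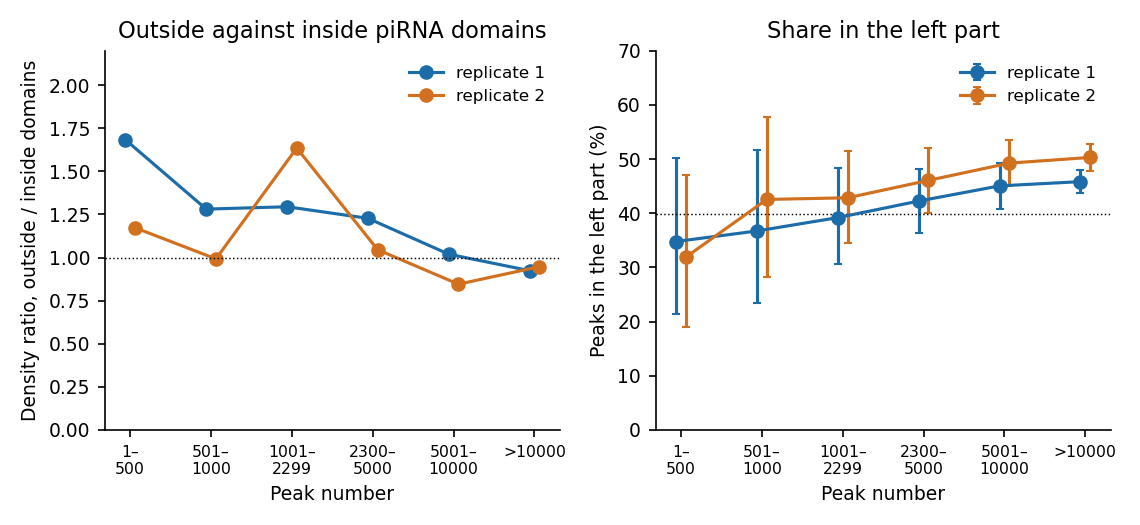
Left panel, ratio of peaks per Mb outside to inside the piRNA domains of chromosome IV, by peak number in each replicate, with a dotted line at 1; right panel, percentage of members in the left part, with 95% exact binomial intervals and a dotted line at its 39.9% share of length. The ratio ended below 1 in both replicates, at 0.92 and 0.95, and the left share ended above the line, at 45.8% and 50.3%.

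Combined strength was also read by part. The median combined number was 1015 in the middle part and 1336.5 in the left part, a lower number being stronger, against 1150 over the whole list. Among the first 500 combined peaks were 30 of the 123 middle members (24.4%, 95% interval 17.1 to 33.0%) and 16 of the 92 left ones (17.4%, 10.3 to 26.7%). Both intervals include the 21.7% of all combined peaks, and the difference between the parts was not tested. At the right end the strongest member, at 17269734 to 17269933, had combined number 420 and numbers 566 and 385 in replicates 1 and 2. The last member of the chromosome, at 17467416 to 17467865, was combined peak 2298, with numbers 8973 and 1800.

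Within these parts the density was uneven. Counted in 22 whole windows of 500 kb, combined members ranged from 3 to 19 with a median of 9. The fullest window ran from 12500001 to 13000000, followed by 3500001 to 4000000 with 18 and the first 500 kb of the chromosome with 16. The emptiest, with 3, was 4000001 to 4500000, directly beside the second fullest. In the strongest 2299 peaks the fullest window was 3500001 to 4000000 in replicate 1 (25 peaks) and the first 500 kb in replicate 2 (18 peaks).

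The longest stretch without a combined member inside a part was 375 kb, from 4071192 to 4445823. It was not free of calls: 81 replicate 1 peaks and 61 replicate 2 peaks were centred there, the strongest with numbers 2534 and 2400. In the middle part the longest such stretch was 290 kb, from 9773769 to 10064252, with 41 and 32 replicate peaks. The strongest of them had numbers 1710 and 1513, within the strongest 2299 of both lists.

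The fourth comparison asked how far members come in groups. Linking centres within 10 kb of each other gave 134 clusters, of which 87 held a single peak, 26 held 2, 14 held 3, 2 held 4 and 5 held 5 or more. With a neighbour within 10 kb stood 134 of the 221 members (60.6%), against 63.1% of all combined peaks. Large clusters took a smaller share of the members than of the list: clusters of 5 or more held 32 members (14.5%), against 20.1% of all combined peaks. The difference was not tested.

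Clustered members ranked higher than single ones. Their median combined number was 1053.5 (n = 134), against 1409 for single members (n = 87), and 26.9% of them were among the first 500 combined peaks, against 12.6% of the single ones. Both replicates gave this order, with medians of 875 against 1485 in replicate 1 and 1086 against 1368 in replicate 2. These members were picked by a list made within the same series, so this is no independent repeat. Where overlapping combined peaks shared a best replicate peak, its number was counted for each of them. Over all combined peaks the median combined numbers of clustered and single peaks were 1018.5 and 1368. The shares among the first 500 were 26.3% and 14.0% there, so the members followed the whole list. The difference between clustered and single peaks was not tested. Isolation did not preclude strength, since 6 of the 20 strongest members had no neighbour within 10 kb, the strongest of them combined peak 60.

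The largest cluster, here called E, held 10 peaks between 12533719 and 12553304. Its combined numbers ran from 128 to 1992, and 9 of the 10 were at the ceiling of the score. The strongest, at 12551968 to 12552287, stood near the right end of the cluster, and a second strong one at 12537782 to 12538019 (combined number 213, numbers 147 and 378 in replicates 1 and 2) stood 14.2 kb to its left. Within the span lay 22 replicate 1 peaks, of which 11 were among that list's strongest 2299, and 19 replicate 2 peaks, of which 7 were.

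Cluster C, in the left part at 3838678 to 3849363, held 7 peaks around combined peak 45, which had the same number, 51, in both replicates. Only 1 of its other peaks, at 3844623 to 3844886 (combined number 249), was among the first 1000. Cluster B at 3755522 to 3772055 held 5 peaks, with combined number 203 at 3764256 to 3764565 and 254 at 3771817 to 3772055. Clusters B and C both lie in the second fullest window of 500 kb.

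Cluster D in the middle part, at 8000856 to 8012674, held 5 peaks with combined peak 31 at their head. Cluster A near the left end, at 553939 to 563434, also held 5, and its strongest had only combined number 778. Its best replicate peaks had numbers 800 and 728, so both libraries ranked this cluster lower than the other 4. A pair of its combined peaks, at 560262 to 560711 and 560508 to 560957, overlapped each other and shared their best replicate peaks, and so did a pair in cluster E.

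**Figure D5:**
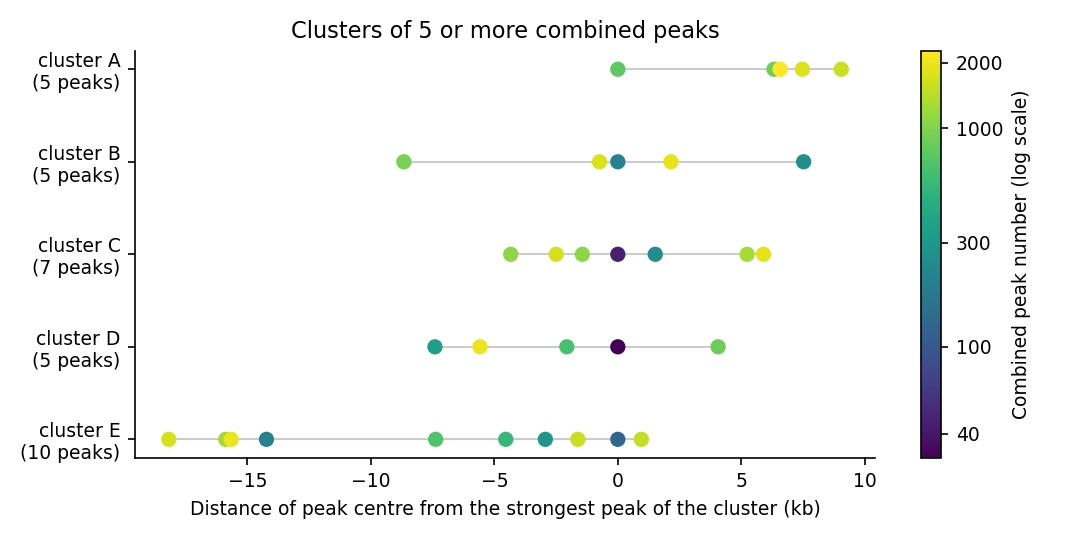
Each row is 1 cluster of 5 or more combined members (A to E, in order along the chromosome); points are peak centres by distance in kb from the strongest peak of the cluster, coloured by combined peak number on a log scale, dark being strong. In clusters B to E the strongest peak has number 203 or lower, and weaker peaks stand on both sides of it; in cluster A all peaks are at 778 or beyond.

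Smaller groups could be as strong. At 173042 to 177789 stood 4 peaks with combined numbers 269, 407, 20 and 476 from left to right, all at the ceiling. All 4 were within number 701 of replicate 1 and 394 of replicate 2, so this group within 4.75 kb was strong throughout. Clusters of 5 or more each included a peak at combined number 1911 or beyond.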

How the data were processed

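The authors deposited peak lists of 2 anti-GFP ChIP libraries and 1 combined list, on WormBase WS220 per the file headers. Per the file headers and source column, SPP was run via IDR (irreproducible discovery rate, which keeps calls of like rank in replicates). Aligner, versions, thresholds and the making of the combined list are not stated. The deposited score has no stated scale and is tied at a ceiling, so peaks were ordered by the deposited peak number. Spearman's rho of number and score over the members was -0.77 in the combined list and -1.00 in both replicate lists. Below the ceiling of the combined list the score did not fall steadily with number: peak 1744 had 3.07 and peak 1830 had 3.09. Close combined numbers there are therefore no order of score. Per the labels' protocols, worms were crosslinked with formaldehyde and a portion of lysate was kept as input. Input libraries have no values here. Nothing in the labels says whether replicates came from separate cultures, so their spread may be technical.

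Intervals sharing at least 1 bp were counted as overlapping. The best overlapping replicate peak is the one with the lowest number. Clusters are runs of member centres within 10 kb of the next. Lengths run to the last deposited peak. Intervals are exact (Clopper-Pearson, 95%). No chance test was made and the peaks were not treated as replicates of a condition. The intervals do count each peak as if it were independent, although peaks cluster. They therefore describe counting error alone, and whether they overlap or include a value is no test. Named regions are the 20 members with the lowest combined numbers, clusters of 5 or more, the 5 widest rank gaps in each direction, the 5 strongest calls missing elsewhere and the members at the domain edges; other regions were named after their values were seen. The members and lists were chosen with earlier results of these data known. Alternatives were reciprocal overlap of 50%, centres within 200 bp, shorter lists, merged peaks and other spacings. Overlap, matching, merging and clustering were tested on simulated data and gave the known answer in all 120 comparisons. Software was bedtools 2.31.1, matplotlib 3.10.9 and Python 3.11.15 with scipy 1.17.1, pandas 2.3.3 and numpy 2.4.6. Genes, promoters and sequences of the peaks were not analysed here for want of a WS220 genome.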

Additional observations from a re-analysis of the deposited data

How the results depend on the processing

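The number of combined members stayed at 217 to 221 with whole intervals required or overlapping peaks merged. Without replicate 1 or replicate 2, the top 2299 peaks of the remaining library stood in for the combined list, which could not be remade, and gave 220 to 234 members, a density ratio to other nuclear sequence of 0.84 to 0.90 and 60.0 to 62.8% of members with a neighbour. The ratio was 0.89 with each cluster counted once. The share of replicate 1 members overlapped moved from 42.0% to 29.1% (reciprocal overlap of 50%), 30.0% (centres within 200 bp), 38.9% (each list cut to its stronger 50%) and 65.5% (both cut to 2299 peaks), and that of replicate 2 from 51.7% to 35.2%, 36.2%, 47.3% and 65.0%. Combined members overlapped by both replicates were 83.7% with reciprocal overlap and 100% in the stronger 50%. Spearman's correlation of the peak numbers of matched members was 0.52 with centres within 200 bp, 0.62 in the stronger 50% and 0.74 in limited lists. Members with a neighbour were 49.8% at 5 kb, 71.9% at 20 kb and 53.6% in the stronger 50%. Stricter overlap or spacing lowers these shares by construction. Cutting the lists also removes possible partners and neighbours, and the part of this in the other moves was not tested. No paired analysis was possible because no values of the input libraries were analysed here. Without read depth, absence from 1 list does not show that a region was unbound.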
